A study of Drosophila melanogaster with 3 samples.

Results

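The peaks described here lie inside introns and far from any annotated start of transcription. They come from chromatin immunoprecipitation followed by sequencing (ChIP-seq) of the fly protein CG8089 in whole Drosophila melanogaster embryos. The authors' reproducible list on genome build dm6 held 3233 peaks, and 591 of them (18.3%) met the position rule. The summit had to fall within an annotated transcript but in no exon, and more than 2000 bp from the nearest transcription start site (TSS). These 591 are called far-intronic peaks below. The remaining reproducible peaks were 1701 promoter peaks with a summit within 500 bp of a TSS, 435 intronic peaks closer to a TSS, 418 intergenic peaks and 88 exonic peaks.

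All embryos belonged to 1 group. They carried a stable transgene for CG8089 with green fluorescent protein (GFP) fused at the C-terminal end, were 0 to 24 hours old, and were pooled males and females. The sample notes name an antibody against GFP for the precipitation, while the antibody field of the labels names CG8089. The 3 biological replicates carry the labels' numbers 2, 3 and 4. There is no second genotype, treatment or age to compare with. Signal from all embryonic tissues and stages is mixed, so a peak cannot be assigned to a tissue or an hour, and the peaks are those of a tagged transgenic protein. Chromatin was sonicated to 200 to 800 bp. Read depth is unknown, and so is the scale of the authors' signal, so signal served only to rank peaks within a list. The pooled list of 30000 entries was made from the same replicates, and the reproducible list is its 3233 entries of highest signal, so agreement of the replicates with it is partly built in. Weak far-intronic peaks, used for comparison, are the 5662 entries of the pooled list that obey the same position rule and overlap no reproducible peak.

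Introns of long fly genes hold many enhancers, DNA segments that bind transcription factors and regulate a promoter at a distance. The first introns of developmental regulators are known for them. Sites of insulator proteins, which limit contacts between enhancers and promoters, also occur in introns. A ChIP-seq summit marks the place of highest read density, and bound sequence usually lies within about a fragment's length of it.

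The sequences around the summits are shown first because 1 arrangement recurs in some of them. Each run covers 201 bases of dm6, from 100 bases before to 100 bases after the summit, and is printed 5' to 3' on the plus strand. Capitals mark the 5-base word CACTG or its reverse complement CAGTG. Tlk (Tousled-like kinase, chrX:3742134-3742334) is shown as the strongest far-intronic peak and JIL-1 (a histone H3 kinase, chr3L:11084675-11084875) as a very GC-poor one. The strongest peak in Raf (a kinase of the MAP kinase cascade, chrX:2297622-2297822) is shown for a word that faces away from the summit. CG34417 (chrX:6549773-6549973) has words on 1 side. The host genes kirre (an adhesion protein of muscle founder cells, chrX:3097114-3097314), CHES-1-like (a forkhead transcription factor, chrX:7700310-7700510), Eip75B (an ecdysone-induced nuclear receptor, chr3L:18009073-18009273) and hiw (a ubiquitin ligase of synapse growth, chrX:15022329-15022529) have words on both sides that face the summit; CHES-1-like also has 1 on each side that faces away. The summit in aop (an ETS-domain repressor, chr2L:2163558-2163758) also has a facing pair but is not GC-poor.

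Tlk: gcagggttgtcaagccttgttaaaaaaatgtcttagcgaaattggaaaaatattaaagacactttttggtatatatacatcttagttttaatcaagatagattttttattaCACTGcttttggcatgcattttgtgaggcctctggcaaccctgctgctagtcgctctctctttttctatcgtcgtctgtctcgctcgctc

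Raf: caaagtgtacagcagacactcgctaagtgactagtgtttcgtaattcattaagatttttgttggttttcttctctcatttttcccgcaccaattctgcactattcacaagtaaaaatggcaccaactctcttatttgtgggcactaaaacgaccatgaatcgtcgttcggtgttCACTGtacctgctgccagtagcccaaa

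JIL-1: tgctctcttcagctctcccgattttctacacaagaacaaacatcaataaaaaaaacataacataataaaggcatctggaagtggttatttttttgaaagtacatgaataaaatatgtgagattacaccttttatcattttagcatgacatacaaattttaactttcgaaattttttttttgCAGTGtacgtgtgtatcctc

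CG34417: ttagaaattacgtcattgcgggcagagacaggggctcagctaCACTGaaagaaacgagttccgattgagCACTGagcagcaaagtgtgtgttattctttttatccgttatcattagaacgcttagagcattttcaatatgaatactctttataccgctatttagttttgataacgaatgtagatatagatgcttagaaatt

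kirre: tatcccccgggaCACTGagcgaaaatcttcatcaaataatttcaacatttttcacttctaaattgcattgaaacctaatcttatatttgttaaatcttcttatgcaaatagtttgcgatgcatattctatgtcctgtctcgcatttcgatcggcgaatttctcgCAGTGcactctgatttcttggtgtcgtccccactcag

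CHES-1-like: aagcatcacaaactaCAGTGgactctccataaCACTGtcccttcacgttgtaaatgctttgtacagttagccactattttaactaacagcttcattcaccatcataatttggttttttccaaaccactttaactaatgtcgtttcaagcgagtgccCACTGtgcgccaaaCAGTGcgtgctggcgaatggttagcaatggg

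Eip75B: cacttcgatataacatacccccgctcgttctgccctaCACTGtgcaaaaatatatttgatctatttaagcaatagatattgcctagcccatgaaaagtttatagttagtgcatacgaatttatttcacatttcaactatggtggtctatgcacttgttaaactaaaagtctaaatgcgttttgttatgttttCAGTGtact

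hiw: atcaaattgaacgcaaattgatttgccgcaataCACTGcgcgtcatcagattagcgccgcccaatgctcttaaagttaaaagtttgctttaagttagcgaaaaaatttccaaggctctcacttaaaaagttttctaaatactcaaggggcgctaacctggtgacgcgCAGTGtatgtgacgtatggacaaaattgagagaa

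aop: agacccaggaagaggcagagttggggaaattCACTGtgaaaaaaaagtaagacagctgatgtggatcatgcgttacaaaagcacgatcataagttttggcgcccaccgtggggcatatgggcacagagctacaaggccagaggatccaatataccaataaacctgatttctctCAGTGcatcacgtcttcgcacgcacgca

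In kirre, CACTG lay 86 bp before the summit and CAGTG 66 bp after it, so that both words read 5' to 3' towards the summit. In hiw the same pair lay 65 bp before and 69 bp after, and in Eip75B 61 bp before and 94 bp after. At aop the distances were 67 and 75 bp. JIL-1 had 1 such word, 83 bp after the summit. CG34417 had words 56 and 29 bp before the summit. In CHES-1-like the inward words lay 66 bp before and 72 bp after the summit, and the outward ones 83 bp before and 58 bp after.

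The arrangement was not general. Of the 6 strongest far-intronic peaks, JIL-1 was the 1 with an inward-facing word at 50 to 100 bp. Raf, Hr4 and fz each held a word in that zone that faced away, 76 bp after, 97 bp before and 83 bp before the summit. Tlk held 1 word only 13 bp from its summit, and CG32486 held none.

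CACTG read towards the summit was most frequent 50 to 100 bp from it. In far-intronic peaks there were 15.9 such words per 100 peaks at 50 to 75 bp and 14.7 at 75 to 100 bp. The weak far-intronic peaks had 6.38 and 5.90 at these distances. Closer than 25 bp the far-intronic peaks had 5.75 words per 100 peaks and the weak ones 6.13. Read away from the summit, the word gave 7.45 and 8.97 per 100 far-intronic peaks at 50 to 75 and 75 to 100 bp. The word, its orientation and the zone of 50 to 100 bp were all chosen after their values were seen.

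**Figure D1:**
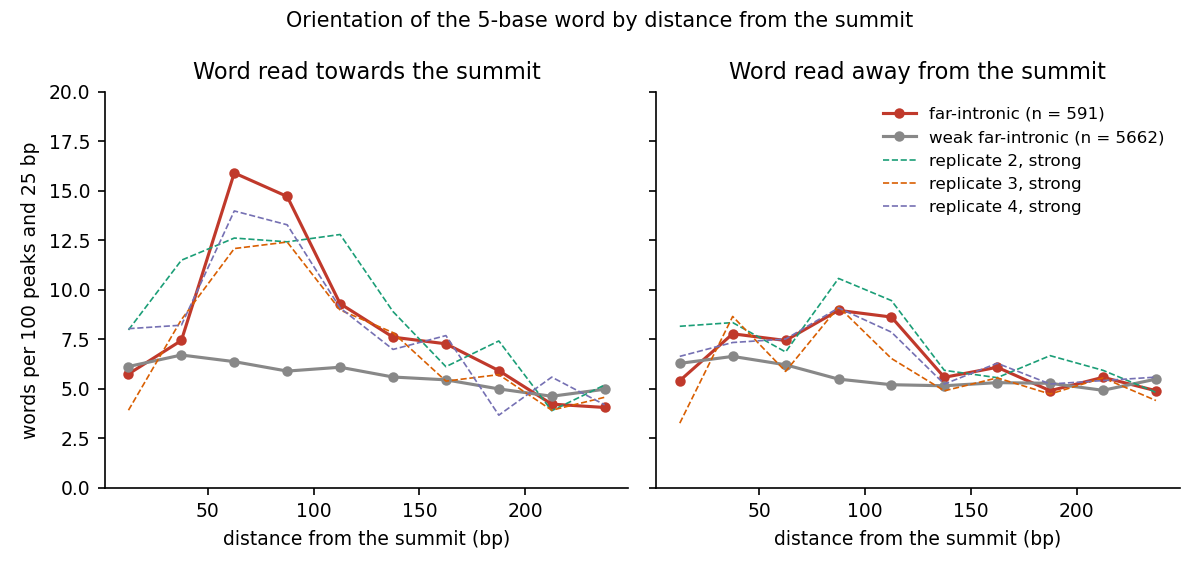
Number of CACTG words per 100 peaks and 25 bp (vertical axis) by distance from the summit in bp, read towards the summit on the left and away from it on the right. Red points are the 591 far-intronic peaks, grey points the 5662 weak ones, and dashed lines the far-intronic peaks among the strongest 3233 of each replicate; words read towards the summit reach 15.9 per 100 peaks at 50 to 75 bp, against 6.38 in the weak peaks.

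An inward-facing CACTG at 50 to 100 bp occurred at 145 of the 591 far-intronic peaks (24.5%). The share was 11.3% of weak far-intronic peaks, 12.5% of them after weighting to the GC content of the far-intronic peaks, and 7.72% of all 196651 windows tiled over sequence that meets the position rule. A word on both sides, facing inward, occurred at 31 far-intronic peaks (5.25%), at 0.742% of weak ones and at 0.182% of the tiled windows. Such a pair was at 4.5% of intergenic peaks, 2.3% of intronic peaks closer to a TSS and 1.3% of promoter peaks. It was thus not particular to far-intronic peaks. Outward-facing words in the same zone occurred at 14.0% of far-intronic and 11.0% of weak peaks.

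Each replicate gave the same order when its own far-intronic peaks were divided into those among its strongest 3233 and the rest. The word, its orientation and the zone were chosen on peaks pooled from these replicates, so this is no independent evidence. The inward share was 20.2% of strong peaks in replicate 2, 20.8% in replicate 3 and 22.0% in replicate 4. Among the rest it was 10.4%, 11.3% and 10.5%. The mean difference was 10.3 ± 1.08 percentage points (SD, n = 3), with a two-sided p of 0.25 in an exact sign-flip permutation test. The strong and weak values did not overlap, but with 3 replicates this test cannot give less than 0.25, so no comparison over replicates here can pass 0.05. Outward-facing words in the same zone were at 14.7%, 13.2% and 15.2% of strong peaks in replicates 2, 3 and 4. Among the rest they were at 9.85%, 9.37% and 10.4%, so both orientations were more frequent in strong peaks.

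The inward share fell along the ranking of the far-intronic peaks themselves. With these peaks divided by signal into 4 equal groups, it was 32.4% in the strongest, 27.7% in the second, 21.0% in the third and 17.0% in the weakest. Intergenic peaks, at 24.2%, were close to the far-intronic ones, whereas intronic peaks near a TSS had 19.1% and promoter peaks 13.4%. Outward-facing words were at 10.5% of intergenic, 17.0% of near intronic and 15.7% of promoter peaks. Inward words thus led only slightly in near intronic peaks and were the rarer kind in promoter peaks. Between 2 facing words the most frequent distance in far-intronic peaks was 140 to 159 bp, with 31 pairs (5.25 per 100 peaks), followed by 160 to 179 bp with 22 pairs. In weak peaks 140 to 159 bp was also the most frequent distance, with 1.15 pairs per 100. Intergenic peaks had 4.31 and 5.26 facing pairs per 100 at 140 to 159 and 160 to 179 bp, close to the far-intronic peaks. Near intronic peaks had 2.76 and 1.61, and promoter peaks 1.47 and 1.18. Words facing away from each other were less frequent in far-intronic peaks at these distances. They made 13 pairs (2.20 per 100 peaks) at 140 to 159 bp and 14 pairs (2.37) at 160 to 179 bp. Weak peaks had 0.55 and 0.44 such pairs per 100, so pairs at these distances were more frequent in far-intronic than in weak peaks in either orientation. At 0 to 19 bp the order was the other way round in far-intronic peaks. There 16 pairs (2.71 per 100) faced away from each other and 4 (0.68 per 100) faced each other.

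The bases around the word differed from those around CACTG elsewhere. Counted from 1 at the C that opens the word, the 183 inward-facing words of the far-intronic peaks had T at position -2 in 61.2% of cases, against 31.7% of 30461 words in the tiled windows. The base just before the word was A in 37.7% and G in 41.0%. Past the word, A filled positions 10, 11 and 12 in 71.0%, 73.2% and 64.5% of cases, against 29.0%, 29.6% and 30.4% in the tiled windows. The longer word TACACTG lay within 100 bp of 63 far-intronic summits (10.7%), 4.15% of weak ones and 1.96% of tiled windows. CACTGAGAG lay at 26 (4.40%), 0.848% and 0.232%, and CACTGTGC at 32 (5.42%), 1.71% and 0.782%. For TACACTG, CACTGAGAG and CACTGTGC in turn, intergenic peaks had 13.2%, 5.02% and 3.59%. Near intronic peaks had 8.05%, 2.76% and 4.37%, and promoter peaks 4.82%, 0.941% and 4.35%. TACACTG and CACTGAGAG were thus most frequent in intergenic peaks. All words were searched on both strands, CACTG is contained in each of them, and these longer words too were chosen after seeing values.

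The sequence at the summit was poor in G and C. These values are over all peaks of a set, with or without the word, and the relation of GC content to the word was not tested. Within 50 bp of the summit the mean GC content of far-intronic peaks was 36.2%, and at 150 to 250 bp it was 44.0%. Weak far-intronic peaks were level, with 43.4% and 43.1%. The core minus the flank was -7.80 percentage points in far-intronic peaks, -7.22 in intronic peaks near a TSS, -5.40 in intergenic peaks and -2.56 in promoter peaks. A core below 30% GC was found at 132 far-intronic peaks (22.3%), at 8.78% of weak ones, and at 29.4% of near intronic, 18.2% of intergenic and 20.1% of promoter peaks. The low GC at the summit is thus not particular to far-intronic peaks, and near intronic peaks had a lower core mean, 35.5%. Of the far-intronic peaks shown above, the JIL-1 core had 25.7%, kirre 31.7% and Eip75B 30.7%, while the aop core had 51.5%.

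**Figure D2:**
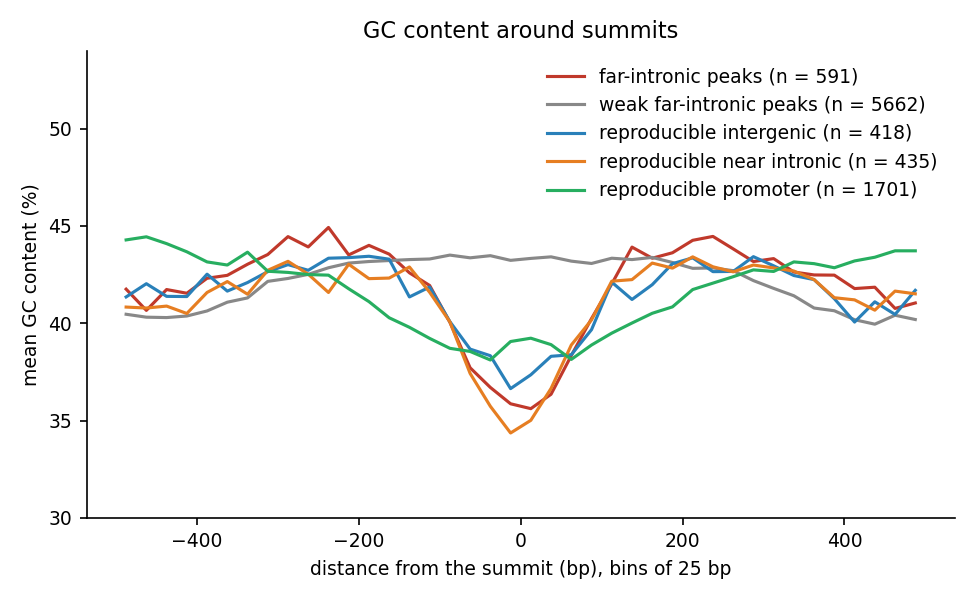
Mean GC content in percent by distance from the summit in bp, in bins of 25 bp, for far-intronic, weak far-intronic, near intronic, intergenic and promoter peaks; the vertical axis does not start at 0. The far-intronic peaks dip to a mean of 36.2% within 50 bp of the summit, where the weak peaks stay at 43.4%.

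Over the window of 100 bp either side, the replicates repeated this difference. Strong far-intronic peaks averaged 37.8%, 38.2% and 38.6% GC in replicates 2, 3 and 4, and the rest averaged 44.9%, 41.5% and 43.6%. The mean difference was -5.14 ± 1.87 percentage points (SD, n = 3, exact two-sided sign-flip permutation p = 0.25), with the strong peaks lower in 3 of 3 replicates. It was -2.55 points over 200 bp either side. The core against flank difference was -7.62, -6.67 and -6.02 points for the strong peaks and 1.68, -0.472 and 1.03 points for the rest.

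The 6-mers with the largest surplus over weak far-intronic peaks were AT-rich. Among 2080 6-mers, AAATAT led with 46.7% of far-intronic windows against 30.8% of weak ones. TAAATA (39.3% against 26.6%), AAAATA (46.9% against 34.4%) and ATTTAA (36.0% against 23.6%) followed. The largest deficit was that of CTGCCA, with 6.26% against 15.8%. Base composition moves with these words, and its part in their difference was not tested.

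The words ACACTG and ACAGTG, known from earlier results of these data and therefore no independent evidence, were in 19.8% and 20.1% of far-intronic windows. Weak peaks had 11.5% and 10.9%, or 13.5% and 12.9% after weighting to the same GC content, and the flanks 400 bp to either side had 7.87% and 7.36%. Near intronic peaks had 18.2% and 22.5%, intergenic peaks 22.5% and 16.8%, and promoter peaks 21.8% and 18.6%. These words were thus not particular to far-intronic peaks. One or the other was at 36.7%, 28.3% and 33.9% of strong far-intronic peaks in replicates 2, 3 and 4. It was at 17.6%, 17.8% and 17.6% of the rest. The difference was 15.3 ± 4.39 percentage points (SD, n = 3, exact two-sided sign-flip permutation p = 0.25), in the same direction in 3 of 3 replicates. Within 50 bp of the summit it was 4.65 points.

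Sites of known regulators were less common. The core AGNNGGCGC of CTCF, an insulator protein, lay at 21 far-intronic summits (3.55%), at 2.53% of weak ones, at 7.66% of intergenic ones and in 1.30% of tiled windows. The promoter element DRE (TATCGATA) lay at 1 far-intronic summit (0.169%) but at 7.00% of promoter summits. Motif 1 (GGTCACACT), another core promoter element, lay at 0.338% against 3.53%. Weak peaks and tiled windows had DRE at 0.283% and 0.446%, and Motif 1 at 0.230% and 0.093%. Low shares were thus not particular to far-intronic peaks. GAGAGAG, the site of GAGA factor, was at 3.72% of far-intronic, 4.10% of weak and 2.65% of tiled windows. CAGGTAG, the site of the early activator Zelda, was at 1.69%, 0.936% and 0.892%. Homeodomain core TAATTA was at 13.0%, 11.3% and 14.2%, and the nuclear receptor site AGGTCA at 5.25%, 4.24% and 5.08%. A match describes the letters only.

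Far-intronic peaks were scarcest among the strongest peaks of the pooled list. With the reproducible list divided by rank into 4 equal groups, they made up 14.0% of the strongest group and 18.4%, 20.7% and 20.1% of the following ones. The far-intronic share of a replicate's strongest 3233 peaks was 16.7% in replicate 2, 18.9% in replicate 3 and 17.7% in replicate 4. Among its other peaks it was 25.7%, 22.2% and 21.6%. The strong peaks were lower in 3 of 3 replicates, by 5.37 ± 3.17 percentage points (SD, n = 3, exact two-sided sign-flip permutation p = 0.25). Without replicate 2 the mean difference was -3.55 points. Of 6336 far-intronic entries in the pooled list 9.33% were reproducible, close to the 10.8% of all pooled entries. Sequence that meets the position rule spans 41.4 Mb, 30.9% of the 6 chromosomes, so 18.3% of the reproducible peaks lay in 30.9% of the sequence.

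**Figure D3:**
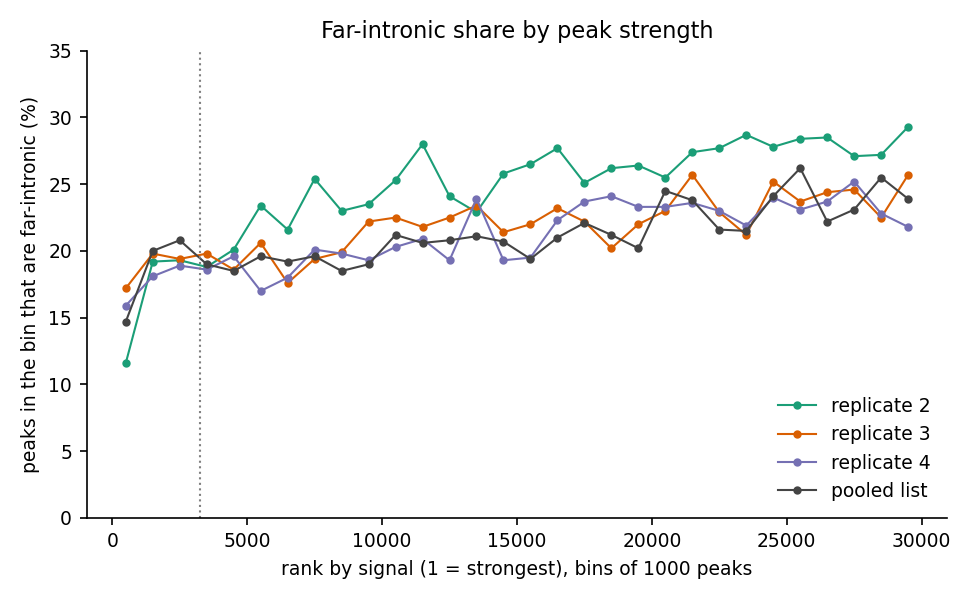
Share of peaks that are far-intronic, in percent, by rank in bins of 1000 peaks (rank 1 is strongest), for the lists of replicates 2, 3 and 4 and the pooled list; the dotted line marks rank 3233. The first bin is lowest in every list, from 11.6% in replicate 2 to 17.2% in replicate 3.

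The signal of the far-intronic peaks ran from 115.9 to 1030.8, with a median of 167.3. Medians were 178.5 for promoter, 181.8 for near intronic and 170.1 for intergenic peaks. Within the replicates' own lists, the median rank of the far-intronic peaks was 1903.5, 1687 and 1769.5 in replicates 2, 3 and 4, where a lower number is stronger. Near intronic peaks had 1772, 1436.5 and 1471, and promoter peaks 1335, 1653 and 1563. Far-intronic peaks ranked behind both in 3 of 3 replicates (mean differences of 226.8 ± 86.0 and 269.7 ± 272.8 ranks, SD, n = 3, exact two-sided sign-flip permutation p = 0.25 for each). Against promoter peaks the gap shrank to 120.2 ranks without replicate 2. The agreement of all 3 replicates was lost (exact p = 0.5) against promoter peaks with a TSS limit of 1000 bp, protein-coding genes only or the stronger 1616 reproducible peaks, and against near intronic peaks with a limit of 5000 bp, where the gap was 143.2 ranks. Against intergenic peaks, with 1621, 1760.5 and 1789, no steady direction was seen (exact p = 1). Far-intronic peaks ranked behind them in replicate 2 alone among the 3, and without that replicate the mean difference was -46.5 ranks. Among the stronger 1616 reproducible peaks they ranked behind intergenic ones in 3 of 3 replicates, by 128.5 ranks (exact p = 0.25).

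A replicate recovered a peak when the summit of 1 of its strongest 3233 peaks lay inside it. Replicates 2, 3 and 4 recovered 72.8%, 78.7% and 78.2% of the far-intronic peaks and 79.1%, 75.3% and 81.0% of the other reproducible peaks (mean difference -1.94 ± 4.93 percentage points, SD, n = 3, exact two-sided sign-flip permutation p = 0.75). Without replicate 2 the mean difference was 0.285 points, and with the strongest 1616 peaks of each replicate it was -5.87 points, lower in 3 of 3 (exact p = 0.25). All 3 replicates recovered 289 far-intronic peaks (48.9%), near the 51.9% of all reproducible peaks, and 7 were recovered by none. Recovery by all 3 was lower in weaker far-intronic peaks, from 94.7% in the strongest of the 4 rank groups to 4.94% in the weakest. This fall was partly built in, because the recovery cut-off of 3233 is also the length of the reproducible list. Recovery of the other reproducible peaks was not divided by rank group.

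Among the strongest far-intronic peaks the replicates mostly gave ranks near the pooled one. Tlk ranked 36 in the pooled list and 32, 31 and 52 in replicates 2, 3 and 4. Its peak (chromosome X, 3742057 to 3742381) lies in intron 2 of the gene, 2337 bp from the nearest TSS, with a signal of 1030.8. The strongest peak in Raf, the kinase that links Ras to the MAP kinase cascade, ranked 56 overall and 71, 59 and 44 in the replicates. JIL-1 ranked 93 overall and 142, 56 and 151. These positions overlap between replicates, with none of the 3 leading throughout.

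**Figure D4:**
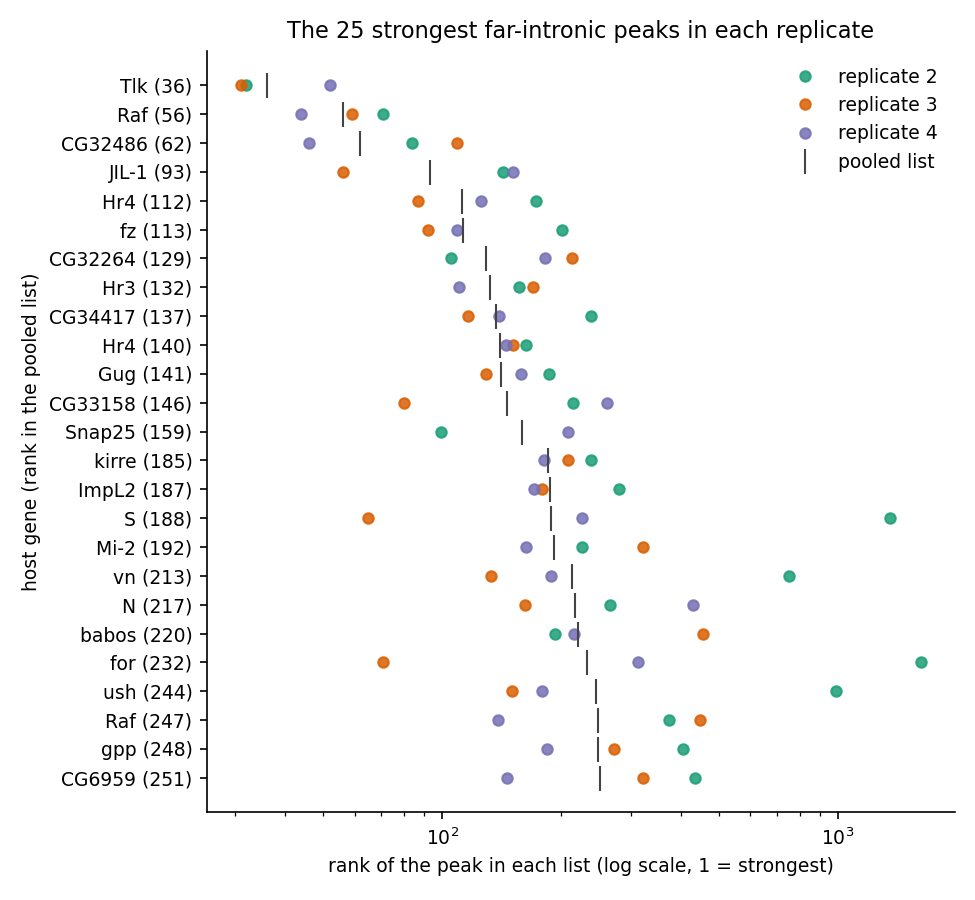
Rank in each replicate's list (coloured points, log axis, 1 is strongest) of the 25 strongest far-intronic peaks, named by host gene with the pooled rank in brackets; bars mark the pooled rank. Most points lie near the bar, while S, vn, for and ush rank from 751 to 1618 in replicate 2 but from 65 to 312 in replicates 3 and 4.

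A set of 4 peaks ranked lower in replicate 2 than in the others, though within its strongest 3233. The peak in S (Star, which moves epidermal growth factor ligands through the secretory pathway) ranked 1354 there, and 65 and 225 in replicates 3 and 4. That in for (a cGMP-dependent kinase) ranked 1618, 71 and 312. In ush, a cofactor of GATA factors, the ranks were 987, 150 and 179, and in vn, a ligand of the epidermal growth factor receptor, 751, 133 and 188. Snap25, a protein of synaptic vesicle fusion, ranked 99 in replicate 2 and 208 in replicate 4 and was not listed in replicate 3. It was the strongest of the 49 far-intronic peaks absent from at least 1 replicate list, with 33 absent from replicate 2, 12 from replicate 3 and 7 from replicate 4.

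The widest differences of rank among peaks listed in all 3 replicates were in weaker peaks. The peak in pigs ranked 29620 in replicate 2, 1297 in replicate 3 and 1922 in replicate 4. Those in GEFmeso and Tsp66E were likewise near the bottom of replicate 2 only, at 29501 and 29565. The peak in Scp1 ranked 28665 in replicate 3 only, and the peak in ptc, the Hedgehog receptor, ranked 4732, 737 and 27144. Over far-intronic peaks listed in both, Spearman's rank correlation between replicates was 0.345 for 2 and 3 (n = 546), 0.590 for 2 and 4 (n = 552) and 0.606 for 3 and 4 (n = 574). Over all reproducible peaks it was 0.483, 0.664 and 0.635. The points share the pooled list that chose them.

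The 591 peaks lay in 369 different host genes when each was given to 1 gene, 579 of them in protein-coding and 12 in noncoding genes. Of 4216 protein-coding genes with any sequence that meets the position rule, 375 (8.89%) held at least 1 such peak, counting overlapping genes separately. Over all gene types, 143 genes held 2 or more.

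The gene kirre held the most, with 9 peaks over 287.5 kb of its introns that meet the rule, at pooled ranks from 185 to 3196. The gene had 59 weak far-intronic peaks as well. Among the strongest 3233 of each replicate it had 7, 6 and 7 far-intronic peaks. Of the 9, 7 lie in intron 5 by the annotation used for numbering.

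Raf was the densest of the 10 genes with the most peaks, with 6 in 24.5 kb (244.9 per Mb). All of them lie in intron 2, at pooled ranks 56, 247, 457, 571, 588 and 2790, from 2297570 to 2306767 on chromosome X. Each replicate had 6 to 8 strong peaks in the gene. Weak far-intronic peaks numbered only 4 there. Hr4 and jing, a zinc-finger transcription factor, held 6 each, and sbb, a transcriptional corepressor, held 7. The 6 of Hr4 had pooled ranks 112, 140, 282, 1605, 1912 and 2736, and the 6 of jing were weaker, from 1615 to 2968. Next came fz, a Wnt and planar polarity receptor, and Eip75B with 5 each. The 5 of Eip75B had closely spaced ranks, from 527 to 749. S, ush and RapGAP1, a GTPase activator for Rap1, held 4 each and were followed by 13 further genes with 4.

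Host genes were then read by function, using 13 gene lists that were chosen with earlier results of these data known. Density is given as peaks per Mb of sequence that meets the position rule, because long genes offer more such sequence. Over all protein-coding genes it was 14.4 far-intronic peaks per Mb. Strong far-intronic peaks of the single replicates gave 13.9 ± 1.09 per Mb (SD, n = 3), and weak far-intronic peaks 137.4 per Mb.

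Nuclear receptors and ecdysone response genes, which time moulting and metamorphosis, were rich in these peaks. Of 20 such genes with eligible sequence 8 held 20 peaks, a density of 33.7 per Mb, and the replicates gave 35.9 ± 3.51. Hr4 (best signal 615.4), Hr3 (573.6), ImpL2, a secreted insulin-binding protein (494.2), and Eip75B (320.3) had the strongest. Weak peaks were dense there too, at 259.4 per Mb.

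Signalling genes followed. In the list for Wnt, Hedgehog, BMP and Hippo signalling 15 of 48 genes held 22 peaks, or 29.6 per Mb, and the replicates gave 29.6, 30.9 and 29.6. The strongest were in fz (615.1), vn (467.9, also on the next list), ex, a Hippo pathway regulator (341.1), and cv-2, a BMP-binding protein (312.8). In the list for Notch, EGFR, FGF and JAK-STAT signalling 14 of 48 genes held 23 peaks, 28.1 per Mb, with 29.7 ± 1.87 in the replicates. There the peaks of aos, a secreted inhibitor of the EGF receptor (556.3), S (493.8), vn and N, the Notch receptor (461.1), were strongest. Weak densities were 291.6 and 236.9 per Mb.

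Chromatin and insulator genes had the highest density of any list, 48.0 per Mb, from 16 peaks in 9 of 49 genes. It rests on only 0.333 Mb of sequence, and the replicates gave 45.0 ± 6.00. The strongest peaks were in Mi-2, a nucleosome remodeller (490.3), gpp, a histone H3 methyltransferase (440.8), trx, a Trithorax-group methyltransferase (389.0), and Psc, a Polycomb protein (263.1). Developmental transcription factors had 44 peaks in 27 of 117 genes, 21.0 per Mb, with 21.2 ± 2.21 in the replicates. The strongest were in ush (445.8), aop (397.9), ken (391.6) and ct, a homeodomain factor (344.2). Weak densities of the 2 lists were 270.2 and 199.8 per Mb. Genes of septate junctions, polarity and epithelia had 21.5 per Mb, among them ed, an adhesion protein (338.3).

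Genes of the differentiated nervous system were at the other end. None of the 52 neurotransmitter and peptide receptor genes held a far-intronic peak in 0.835 Mb of eligible sequence, a count that allows a share of up to 5.77% of genes. Among the replicates' strong peaks, replicate 2 had 1.20 per Mb there and replicates 3 and 4 had 0. Ion channels and transporters had 4.55 per Mb, from 5 peaks in 4 of 59 genes, led by nAChRalpha4, an acetylcholine receptor subunit (393.3). Weak peaks were sparse as well, at 27.6 and 62.8 per Mb. Cytoskeleton and muscle genes had 6.37 per Mb, RNA-binding proteins 9.14, axon guidance and neuronal adhesion genes 10.1 and calcium, cyclic nucleotide and kinase signalling genes 13.2. In turn, 16.7%, 23.1%, 19.5% and 18.8% of the genes with eligible sequence in these lists held a peak, against 8.89% over all protein-coding genes. These lists were thus low by density but not by share of genes. In the axon guidance list kirre alone gave 9 of 33 peaks. The genes of cytoplasmic ribosomal proteins offered no sequence that meets the rule. Lists high in far-intronic peaks were thus also high in weak ones, and the part of the general density of peaks in this order was not tested.

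**Figure D5:**
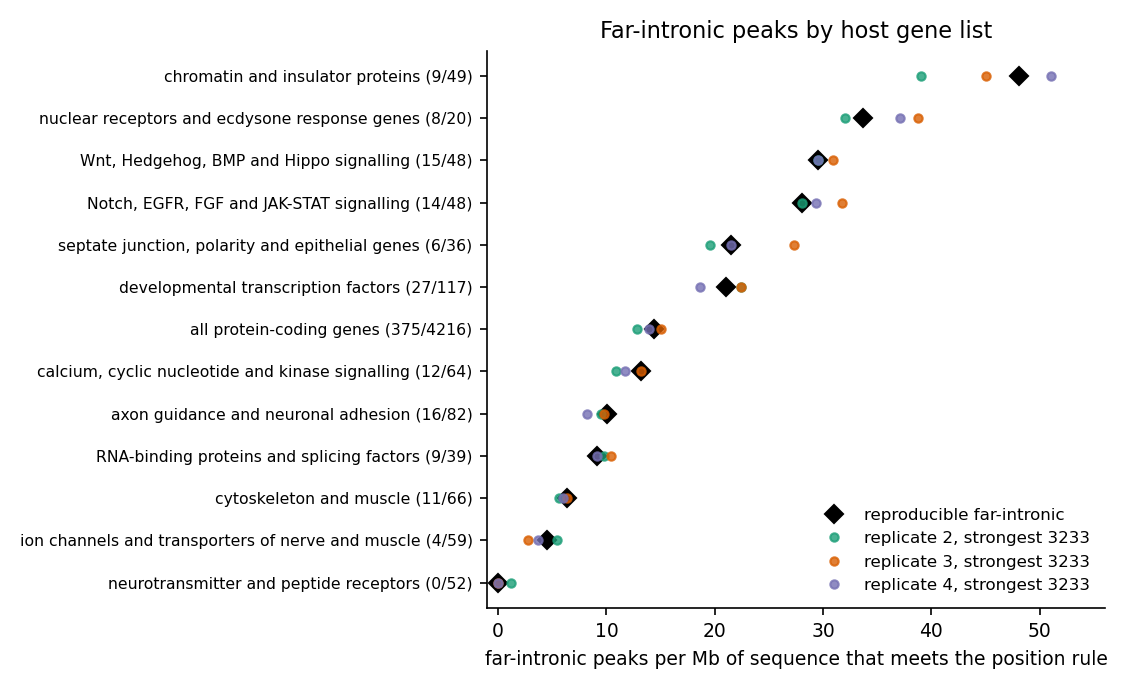
Far-intronic peaks per Mb of sequence that meets the position rule, by host gene list, with the number of genes that hold one and of genes with such sequence in brackets. Black diamonds are the reproducible far-intronic peaks and coloured points the strong far-intronic peaks of each replicate; densities run from 0 in neurotransmitter and peptide receptors to 48.0 in chromatin and insulator proteins.

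Genes with a far-intronic peak more often had a promoter peak too. Of the 375 protein-coding hosts 125 (33.3%) had one, compared with 734 of 3841 genes (19.1%) that had eligible sequence but no far-intronic peak, and 20.4% over both. The gap was present in each of 4 classes of eligible length. With under 10 kb of eligible sequence the shares were 33.0% and 19.4%, and above 50 kb they were 32.8% and 18.1%. Of the 10 genes with the most peaks 5 had a promoter peak (sbb, Raf, Eip75B, S and RapGAP1), and kirre, Hr4, jing, fz and ush had none.

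Density fell from first to later introns for strong and weak peaks alike. First introns held 25.8 far-intronic peaks per Mb of eligible sequence, second introns 16.6 and later introns 7.25. Weak peaks fell in the same order, with 202.5, 154.3 and 93.6 per Mb. The host intron had a median length of 17264 bp, from 349 to 196842 bp. The median distance to the nearest TSS was 5053 bp and the largest 126581 bp. Of all far-intronic peaks 300 were more than 5000 bp away and 116 more than 10000 bp. That nearest TSS belonged to the host gene for 398 peaks and to another gene for 193, so the nearest start is often not the host's.

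By chromosome, density was 17.9 per Mb on X, 16.3 on 2L, 13.9 on 3L, 13.5 on 2R and 11.9 on 3R. Chromosome 4 held 1 far-intronic peak in 0.445 Mb. The strong peaks of the replicates gave 15.7 to 16.9 per Mb on X and 10.8 to 12.4 on 3R, without overlap. These arms were picked as the highest and, outside chromosome 4, the lowest in the same data. In replicate 3, however, 2L (17.7) and 2R (16.4) were above X (15.7), so X did not lead in every replicate. Weak peaks were densest on 2L, at 158.3 per Mb, and had 134.1 on X. Outside chromosome 4 they too were sparsest on 3R, at 121.8 per Mb. Another reproducible summit lay within 5000 bp of 261 far-intronic peaks (44.2%), compared with 54.9% of near intronic, 42.1% of intergenic and 41.3% of promoter peaks. Annotated transposable elements held 3 of them (0.508%), against 0.442% of weak far-intronic peaks.

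At the limit of 2000 bp, just inside were the peaks in hiw (2007 bp, signal 270.8), lncRNA:CR44320 (2010 bp, 404.5) and Kdm2 (2029 bp, 181.1). Just outside were those in CG43658 (1977 bp, 135.7), ZnT63C (1971 bp, 172.9) and IP3K2 (1964 bp, 216.0).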

How the data were processed

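ChIP-seq peak lists on build dm6 were used: the authors' reproducible list, their pooled list and 1 list per replicate, 5 in all. Per the deposited file descriptions, replicate and pooled lists were inputs to the authors' irreproducible discovery rate (IDR) step, and the reproducible list its output. For the caller, its version and the IDR threshold the sources used here give no name or value, and control libraries were not analysed here. Peak strength is the deposited signal, used only for ranks within a list; the deposited −log10 q-value was not used. A summit was the peak's start plus the deposited offset. Replicates are biological per the labels. Read depth is unknown.

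Summits were classed with Ensembl release 115, without transposable elements. Sequence came from the RefSeq copy of the Release 6 genome (dm6). Windows of 201 bp were searched on both strands for 22 motifs, 6 of them words from earlier results, and 5 words added after values were seen. Weighting to equal GC content used classes of 5 percentage points. Tests were exact two-sided sign-flip permutations over 3 replicates, each replicate's strongest 3233 peaks against the rest or 1 peak class against another. Everything else is counts and shares, since peaks of 1 list are not replicates. Of the names in the gene lists, 36 did not match the annotation and were left out.

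Members, gene lists and words were chosen with earlier results of these data known. Genes named are hosts of the 25 strongest peaks, the 10 genes with the most peaks, the 5 peaks with the widest range of ranks over replicates, up to 4 hosts per list and the 3 peaks on each side of the 2000 bp limit; sequences shown were chosen among the strongest peaks, alone or with the word. CHES-1-like, hiw and aop are named for their sequences. Alternatives were other TSS limits, protein-coding genes only, the stronger 1616 peaks, other windows and overlap rules, and leaving out each replicate. The position, word and orientation code was tested on simulated data. Scripts ran in Python 3.11.15 with pandas 2.3.3 and numpy 2.4.6, and figures were drawn in matplotlib 3.10.9.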

Additional observations from a re-analysis of the deposited data

How the results depend on the processing

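Of the alternatives run, 57 kept the direction and the side of the threshold of the result they were set against, 3 reversed it and 5 moved the number of far-intronic peaks. The number was 591 as reported, 819 with a TSS limit of 1000 bp and 629 with protein-coding genes only, both counted among the 57. It was 300 with a TSS limit of 5000 bp, and 262 in the stronger part of the reproducible list, its first 1616 peaks. Counting only peaks that held a strong summit of both other replicates gave 329 to 382 when 1 replicate was left out. Recovery, far-intronic minus other peaks, was -1.94 percentage points and ran from -4.59 to 0.285 points with 1 replicate left out, the highest without replicate 2; it was -5.87 with the strongest 1616 peaks of each replicate and -0.351 with a TSS limit of 1000 bp. The median rank against intergenic peaks differed by 63.2 and by -4.17 with a TSS limit of 1000 bp, and ran from -46.5 to 131.5 with 1 replicate left out, the lowest without replicate 2; it was 128.5 in the stronger 1616 peaks. Against near intronic peaks the gap of 226.8 ranks was 127.2 in the stronger 1616 peaks. The share of ACACTG or ACAGTG, 15.3 points, was 4.65 within 50 bp, and the GC difference, -5.14 points, was -2.55 within 200 bp. The cause was not tested. The share of inward-facing CACTG, strong minus other far-intronic peaks, was 10.3 points, 9.64 to 10.6 with 1 replicate left out, and 13.8 in a zone of 30 to 120 bp; these alternatives were chosen after seeing the data.

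No paired analysis was possible because there is 1 group, so no other group shares its replicate numbers; the tests over replicates compare values within each replicate. With 3 replicates no test reaches 0.05 (smallest p 0.25), so keeping the same side of the threshold says nothing about stability. Depth is unknown, and no limit from it is given.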
